A study of Mus musculus with 10 samples.

Results

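Open chromatin was compared between stressed and standard-reared mice in the nuclei that the labels class as non-activated. These nuclei gave 5 of the 10 ATAC-seq libraries of the study, chosen by their labels alone: 3 libraries of mice raised under early-life stress (replicates 1, 2 and 3) and 2 of mice raised under standard conditions (replicates 1 and 2). All mice, the standard-reared ones included, carried ArcCreERT2, a Cre recombinase that needs tamoxifen and is expressed from Arc, an immediate early gene, and a single copy of the Sun1 nuclear envelope tag (Sun1-myc-sfGFP), and were adults older than postnatal day 60. Nuclei came from the ventral tegmental area of the brain of single animals, and tagged nuclei had been separated magnetically. The labels do not give the stress protocol, the time of recombination or the cells that remain in the non-activated class. Both standard-reared libraries were from females, whereas stressed replicates 1 and 2 were from males and replicate 3 from a female, so that only stressed replicate 3 matches the sex of the controls. Unless another class is named, all libraries below are non-activated ones.

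ATAC-seq uses the Tn5 transposase to insert sequencing adapters where DNA is not wrapped tightly into nucleosomes, so that fragments pile up at active promoters, enhancers and insulators. Dopamine neurons of the ventral tegmental area, in the midbrain, project to the striatum and cortex, and the area also holds GABA and glutamate neurons, astrocytes, oligodendrocytes and microglia. Arc is switched on briefly by strong neuronal activity, and nuclei without the tag come mainly from cells in which Arc-driven recombination did not occur, glia among them. Each library is a bulk sample, in which fewer cells of a type and less open chromatin per cell cannot be told apart. Promoters of cell type markers were not analysed here, so the cell types behind the 5 libraries were not checked.

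The library of stressed replicate 1 stood apart from the other 4. It held 50786 peaks against 12582 and 9008 in stressed replicates 2 and 3 and 7076 and 14636 in standard-reared replicates 1 and 2. Its depth, given as fragments per kb of effective genome, was 6.52 against 0.309 to 1.45 in the other 4, and its narrowest peak, a stand-in for fragment length, was 150 bp against 210 to 250 bp. The 5 activated libraries had 5.30 to 10.9 fragments per kb and narrowest peaks of 134 to 161 bp. Both values of stressed replicate 1 fell within those ranges, although it is labelled non-activated. Its 50786 peaks, however, lay above the 15128 to 39783 of the activated libraries. Whether that library holds the class its label gives was not tested. The main results are therefore also given without it.

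Stressed mice did not differ in peak number, covered length or peak width by more than the spread between libraries. Mean log2 peak number was 14.13 ± 1.32 (SD, n = 3) in stressed and 13.31 ± 0.74 (SD, n = 2) in standard-reared libraries, so the stressed mean was 1.76 times the other (exact permutation test, two-sided, p = 0.6). Such a test of 3 libraries against 2 cannot give a p below 0.1. Without stressed replicate 1 the log2 difference was 0.07 in place of 0.82. Peaks covered 20.3, 5.18 and 3.30 Mb in the stressed libraries and 2.74 and 6.30 Mb in the standard-reared ones, a log2 difference of 0.76 (exact permutation p = 0.7) that was -0.01 without stressed replicate 1. With all pileups thinned to the background rate of the shallowest library, peak numbers were 12202, 8128 and 8952 in stressed and 2674 and 8957 in standard-reared libraries. That log2 difference of 0.97 (exact permutation p = 0.3) was 0.10 without standard-reared replicate 1, 1.85 without standard-reared replicate 2 and 0.80 without stressed replicate 1.

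For the regions, each list was shortened to 7076 peaks by descending -log10 q, as many as standard-reared replicate 1 held (equal-length lists). This removed nothing from standard-reared replicate 1, whose weakest peak had a -log10 q of 1.31. In standard-reared replicate 2 it kept 48.3% of the list, down to a -log10 q of 8.67. In the stressed libraries it kept 13.9%, 56.2% and 78.6%, down to 35.3, 5.53 and 3.19. A region missing from an equal-length list may therefore still be a called peak lower down in the whole list, in every library but standard-reared replicate 1. Median peak width at equal length was 749, 469 and 368 bp in the stressed and 360 and 521 bp in the standard-reared libraries, so the groups overlapped (exact permutation p = 0.7).

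**Figure D1:**
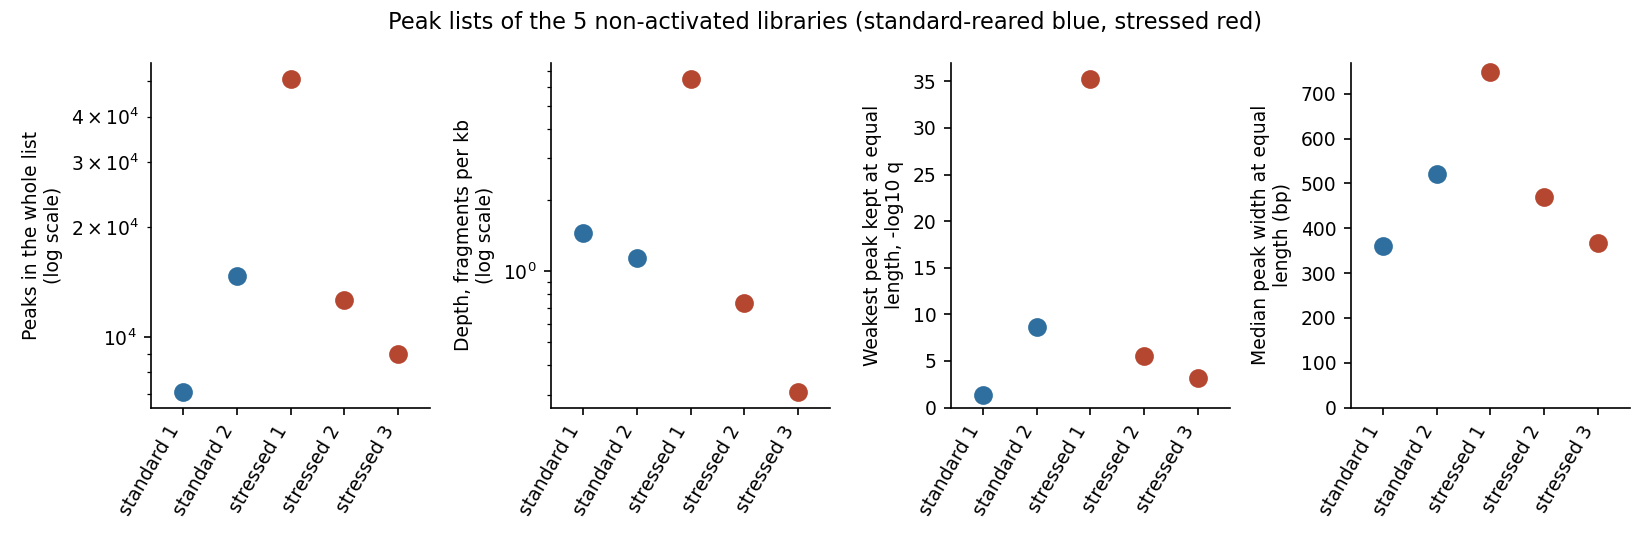
The 5 non-activated libraries on the horizontal axis of every panel, standard-reared in blue and stressed in red, 1 point a library. The panels show peaks in the whole list (log axis), depth in fragments per kb (log axis), the weakest -log10 q kept at equal length and the median peak width at equal length in bp; stressed replicate 1 is the highest point in all of them, with 50786 peaks and a width of 749 bp.

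Most open regions did not follow rearing. Merging overlapping peaks of the 5 equal-length lists gave 11826 regions, of which 3898 (33.0%) were in 1 list and 3628 (30.7%) in all 5. The regions in 1 list came from every library, with 1268, 748 and 884 in the stressed and 666 and 332 in the standard-reared ones. Of the regions missing from 1 list alone, 651 lacked only stressed replicate 1, 234 and 361 only stressed replicates 2 and 3, and 268 and 103 only standard-reared replicates 1 and 2. Among the 7928 regions with a peak in at least 2 lists, 55 were in all 3 stressed lists and neither standard-reared list, which is 0.694% of them, and 137 (1.73%) were in both standard-reared lists and no stressed one. No single region can pass an exact test with these sample numbers, so both counts are descriptions. The 55 were the fewest of all patterns with 3 libraries, where the others held 83 to 203 regions, and the 137 lay within the 89 to 183 of the other patterns with 2 libraries.

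**Figure D2:**
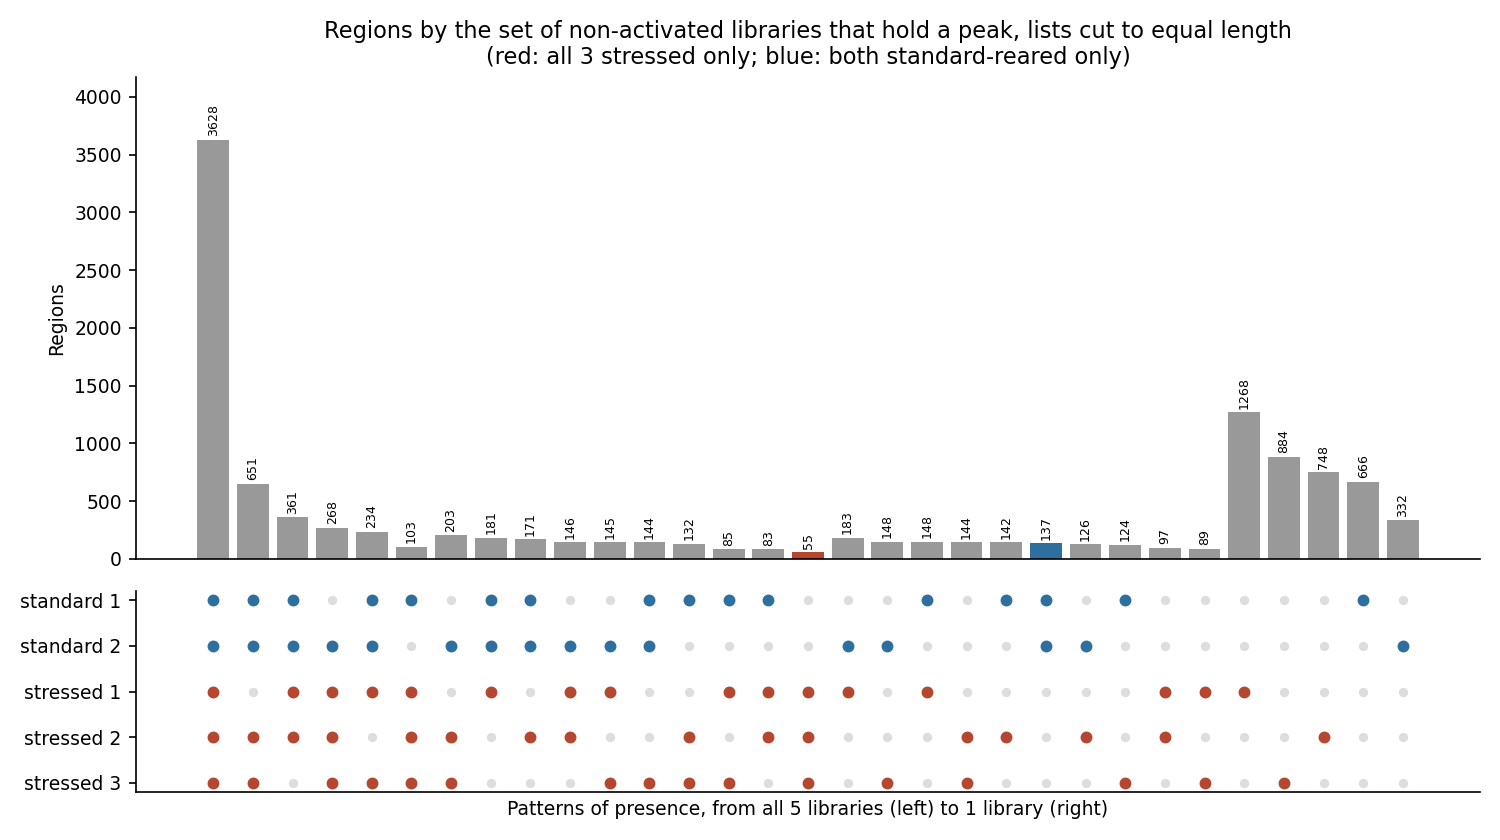
Number of regions (vertical axis) for each pattern of presence over the 5 equal-length lists; filled dots below a bar mark the libraries with a peak, blue for standard-reared and red for stressed. The 3628 regions of all 5 lists form the tallest bar, and the 55 stressed-only (red bar) and 137 standard-reared-only regions (blue bar) are among the short ones.

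The 55 stressed-only regions mostly had a weaker peak in a standard-reared library as well, below the cut. Standard-reared replicate 1, with no peaks below the cut, had a peak in 0 of the 55. Standard-reared replicate 2 had one in 53 of them in its whole list. Those peaks had a median -log10 q of 7.08 against the 8.67 needed, and a median fold of pileup over background of 6.47. The same whole list held a peak in 7853 of all 7928 regions, 6726 of them above the cut. It also held one in 1284 of the 1290 other regions found in as many equal-length lists, 990 of them above the cut. A peak in that whole list thus did not set the 55 apart from other regions. Only 2 of the 55, 0.0252% of the 7928 regions, overlapped no peak in the whole list of either standard-reared library.

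The first of these lay at chr14:47535440-47536164 (build mm39, as all positions here). Its fold was 14.2, 6.43 and 5.24 in stressed replicates 1, 2 and 3, from pileups of 42, 8 and 5 fragments. The other lay at chr7:99477299-99477721, with folds of 17.4, 5.91 and 4.93 from 40, 6 and 5 fragments. Both were weak in stressed replicates 2 and 3, at percentiles 14.1 and 17.7 for the first and 3.15 and 6.36 for the second among the 7076 folds of each library. All 5 activated libraries, the 2 standard-reared ones included, had a peak at both positions in their whole lists.

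Among the other stressed-only regions, those with the highest lowest-ranking library were stronger. At chrX:141011163-141011779 the fold was 15.9, 9.03 and 7.25 in stressed replicates 1 to 3, at percentile 61.3 or above in each. Standard-reared replicate 2 had a fold of 6.43 there from 8 fragments (-log10 q of 6.28), and standard-reared replicate 1 had no peak. At chr8:47070021-47070936 the folds were 14.1, 9.41 and 8.22, and standard-reared replicate 2 had 6.90 with a -log10 q of 8.06, just under its cut of 8.67. The region at chr4:34778143-34778574 had folds of 19.9, 9.33 and 6.45 against 4.65 in standard-reared replicate 2, whose peak rested on 6 fragments. It was in all 5 equal-length activated lists. The remaining named ones, at chr9:21635187-21635834, chr7:99770317-99771083 and chr1:180971425-180972231, had folds of 13.9 to 15.9 in stressed replicate 1, 7.72 to 8.95 in replicate 2 and 6.61 to 6.73 in replicate 3. In standard-reared replicate 2 their folds were 6.45, 6.65 and 6.75. In each of these 6 regions standard-reared replicate 2 had a peak below its cut, and at chr7:99770317-99771083 and chr1:180971425-180972231 its fold was slightly above that of stressed replicate 3.

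The 137 standard-reared-only regions were likewise called in stressed mice below the cut. Stressed replicate 1 had a peak in all 137 in its whole list, with a median -log10 q of 23.6 against the 35.3 needed, stressed replicate 2 in 103 (4.34 against 5.53) and stressed replicate 3 in 44 (2.66 against 3.19). None of the 137 (0%) was absent from all 3 whole stressed lists, but stressed replicate 1 alone held a peak in 7898 of all 7928 regions. The whole lists of stressed replicates 2 and 3 held 7582 and 6737 of them. The 137 were called less often than all regions in stressed replicates 2 and 3, but that order was largely set by their choice. They were chosen for absence from the equal-length stressed lists, so only peaks below the cut could count. Of the 1201 other regions in 2 lists, stressed replicate 2 held 509 above its cut and 494 only below it. Stressed replicate 3 held 505 above and 179 only below. The folds of the 137 in the stressed libraries that called them had medians of 8.66, 5.26 and 4.27.

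The highest-ranked of them lay at chr11:62647621-62648007. Its fold was 8.13 and 11.5 in standard-reared replicates 1 and 2, at percentiles 81.9 and 68.3, while stressed replicate 1 had 14.1 (-log10 q of 32.2), replicate 3 had 3.72 from 3 fragments and replicate 2 had no peak. At chr11:53457970-53458456 the standard-reared folds were 6.68 and 12.8, stressed replicates 1 and 2 had 11.1 and 5.42, and replicate 3 had no peak. The region at chr14:34796653-34796943, of 291 bp, had folds of 6.73 and 10.3 in standard-reared mice and 11.1 in stressed replicate 1, and no peak in stressed replicates 2 and 3. In activated nuclei the same region was in all 3 stressed equal-length lists and in no standard-reared one. Its folds there, 6.36, 8.68 and 7.53 against 6.93 and 5.54, overlapped, and all 5 whole activated lists held a peak. The cuts differed: activated standard-reared replicate 1 missed its cut of 13.3 with a -log10 q of 10.6. Activated stressed replicate 1 passed a cut of 5.97 with 7.57.

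The other 5 named regions of this kind were at chr19:24007997-24008408, chr3:127051227-127051592, chr12:100125628-100126017, chr4:120045935-120046312 and chr7:65710061-65710609. Their folds were 5.71 to 6.28 in standard-reared replicate 1 and 9.45 to 12.2 in replicate 2. Stressed replicate 1 called all of them, with folds of 8.35 to 13.6. Stressed replicate 2 called 4 of the 5 at 5.52 to 5.93, and stressed replicate 3 called 2 of the 5, at 4.11 and 4.03 from 4 fragments each. Stressed replicates 1 and 2 thus held most of these regions below the cut.

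Within their own libraries both sets ranked low. The percentile of a region's fold among the peaks of the equal-length list had a median of 25.5 and 18.7 in standard-reared replicates 1 and 2 for the 137 regions, against 54.6 and 52.3 for all regions. For the 55 regions it was 34.0 and 29.3 in stressed replicates 2 and 3, against 55.0 and 56.0, and 53.4 in stressed replicate 1, against 51.4. Regions of the same number of libraries but another pattern gave similar medians: the 1290 other regions in 3 lists had medians of 31.6, 28.3, 51.5, 33.2 and 32.2 in standard-reared replicates 1 and 2 and stressed replicates 1, 2 and 3. Regions in all 5 lists had medians of 70.2 to 70.7 in 4 libraries and 52.0 in stressed replicate 1. In that library peaks outside those regions had a median percentile of 48.1, against 29.9 to 31.4 in the other 4, so that fold hardly separated shared from unshared regions there. By -log10 q the regions in all 5 lists had a median percentile of 69.9 in stressed replicate 1 and 70.6 to 72.4 in the other 4. The 55 stressed-only regions had a median width of 692 bp and the 137 standard-reared-only ones 470 bp, against 723 bp for all regions, widths being measured over the merged peaks. The other regions in 3 and in 2 lists had medians of 597 and 514 bp. Without stressed replicate 1 the order turned, with 414 bp for the stressed-only and 460 bp for the standard-reared-only regions.

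**Figure D3:**
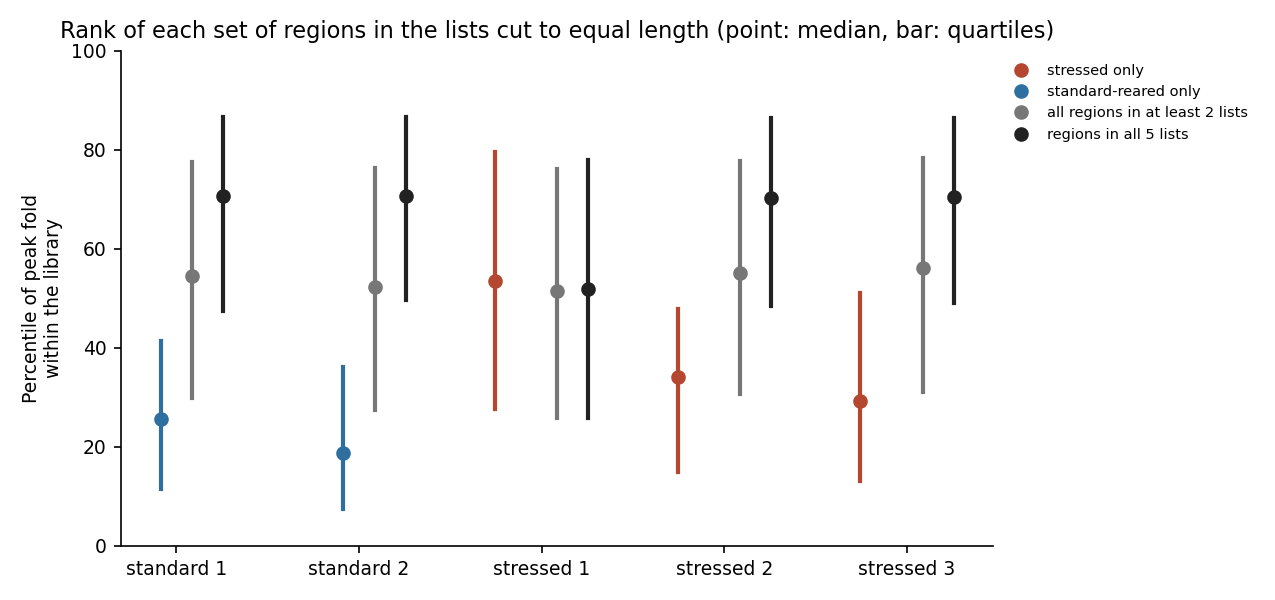
Percentile of peak fold within each library's equal-length list (vertical axis) for 4 sets of regions; points are medians over regions and bars run from the lower to the upper quartile. The stressed-only (red) and standard-reared-only (blue) sets sit at medians of 18.7 to 34.0 except in stressed replicate 1, where the stressed-only median is 53.4 and the regions in all 5 lists (black) are at 52.0.

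Regions open in every library were then compared by rank, since folds of different libraries are not on 1 scale. Of the 3628 regions in all 5 equal-length lists, limma on normal scores of the percentiles called 0 (0%) higher and 0 lower in stressed mice at an adjusted p of 0.05, and 50 (1.38%) had an unadjusted limma p under 0.05, 23 higher and 27 lower. That split was 73 higher and 1 lower in the whole lists and 36 and 11 over regions in at least 4 of the 5 lists, still with 0 calls by limma. Percentiles in whole lists depend on list length. There the 3628 regions had a median percentile of 93.0 in stressed replicate 1, the longest list, and 70.6 in standard-reared replicate 1, the shortest. The whole-list split is therefore no sign of higher ranks in stressed mice. All named rank differences below failed the correction (limma, adjusted p = 0.999871). The absence of calls does not show that ranks were equal: the median standard error of a difference was 0.66 normal-score units, against a median difference of 0.39 in size.

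The region of lowest unadjusted p lay at chr17:27422939-27423684. Its percentile was 77.1 and 87.5 in standard-reared replicates 1 and 2 and 9.41, 31.4 and 8.35 in stressed replicates 1 to 3, with no overlap between groups (difference -2.01 normal-score units, SE 0.64). At chr12:3476560-3477298 the percentiles were 94.5 and 98.1 against 43.3, 57.0 and 66.9 (-1.70). At chr3:113423279-113424133 they were 99.3 and 93.2 against 52.4, 74.7 and 52.5 (-1.72), and at chr16:12927438-12928214 they were 98.9 and 97.5 against 48.1, 78.2 and 75.2 (-1.65). The fifth, chr11:96668146-96668735, had percentiles of 99.2, 92.3 and 57.4 in stressed replicates 1 to 3 and at least 99.8 in standard-reared mice (-1.86, and -1.28 without stressed replicate 3). These 5 were strong peaks in both standard-reared libraries, with folds of 7.73 to 13.5 in replicate 1 and 13.9 to 20.4 in replicate 2.

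In the other direction, chr4:49631691-49632365 was at percentiles 6.25 and 14.5 in standard-reared and 72.3, 53.1 and 79.0 in stressed mice (difference 1.79, SE 0.63). The percentiles at chr3:54599951-54600605 were 11.5 and 40.3 against 93.5, 74.7 and 84.4 (1.79). At chr11:3863632-3864768 they were 14.4 and 2.48 against 22.9, 71.9 and 91.5 (1.92), so stressed replicate 1 lay much nearer to the standard-reared libraries than the other 2 stressed ones. The last of this direction, chr17:74702361-74702955 and chr4:150365579-150366492, differed by 1.71 and 1.62. Peaks in standard-reared replicate 1 rested on 6 to 13 fragments at these 5 positions, against 13 to 22 in standard-reared replicate 2 and 10 to 18 in stressed replicates 2 and 3. In the activated libraries chr4:49631691-49632365 was at percentiles 75.6 and 55.0 in standard-reared and 53.8, 63.5 and 33.8 in stressed mice, where the groups overlapped. At chr3:54599951-54600605 the direction held there without overlap (67.93 and 65.98 against 97.35, 75.27 and 74.53). The direction turned without overlap at chr11:96668146-96668735 (72.56 and 85.54 against 85.93, 94.69 and 96.24) and chr16:12927438-12928214 (84.84 and 85.75 against 93.56, 94.78 and 97.8). The remaining named rank regions overlapped or lacked a peak in some equal-length activated lists.

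By genomic class, the shares of peaks on the X chromosome did not overlap between the groups in the equal-length lists, but did in the whole lists. The X held 2.18%, 2.2% and 2.12% of the equal-length peaks in stressed replicates 1 to 3 and 2.05% and 1.95% in standard-reared ones, a difference of 0.167 percentage points (means 2.17 ± 0.0432, SD, n = 3, and 2.00 ± 0.070, SD, n = 2; exact permutation p = 0.1, the smallest possible; 0.3 adjusted over 3 classes). Without stressed replicate 1 the difference was 0.163 points. In the whole lists it was 0.0152 points, with 1.74%, 2.54% and 2.59% in stressed and 2.05% and 2.5% in standard-reared libraries (exact permutation p = 1). Sex differed between the groups in the same libraries. The only female stressed library, replicate 3, was 0.120 points above the mean of the standard-reared females. In activated nuclei, where both groups held both sexes, the X shares overlapped, with 1.67%, 1.99% and 1.84% in stressed and 1.38% and 1.75% in standard-reared mice.

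On the Y chromosome there were 0, 3 and 0 equal-length peaks in stressed and 1 and 0 in standard-reared libraries (exact permutation p = 1). The whole lists held 15, 9 and 1 against 1 and 1, so the 2 male libraries were the high ones. Clustering was measured as the share of peaks whose next peak began within 10 kb. It was 4.01%, 4.72% and 5.02% in stressed and 5.44% and 4.93% in standard-reared libraries, which overlapped (exact permutation p = 0.3, adjusted 0.45 over 3 classes). Promoter, exon, intron and intergenic classes were not analysed here.

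Of the 55 stressed-only regions 5 (9.09%) were on the X, against 165 of all 7928 (2.08%) and 1 of the 137 standard-reared-only regions (0.730%). The 1290 other regions in 3 lists had 2.79% on the X. Without stressed replicate 1 the X held 8 of the 201 stressed-only regions (3.98%) and 6 of the 318 standard-reared-only ones (1.89%). Besides chrX:141011163-141011779 they were chrX:20786900-20787463, chrX:71961701-71962384, chrX:73289912-73290507 and chrX:92675418-92676090, named after their values were seen. Standard-reared replicate 2 had a peak at all 5 in its whole list, with folds of 6.43 to 6.97 and pileups of 8 to 13 fragments. The female stressed replicate 3 had folds of 4.46 to 7.25 there and the male replicates 1 and 2 had 10.8 to 20.2 and 6.27 to 9.03. Folds of different libraries are not on 1 scale, and that order was not particular to the X. All 55 stressed-only regions had median folds of 14.2, 7.32 and 5.75 in stressed replicates 1, 2 and 3. At chrX:92675418-92676090 the female replicate 3 ranked above the male replicate 2, at percentile 51.8 against 9.98. The 1 standard-reared-only X region was chrX:169015772-169016212, with folds of 5.96 and 7.63, and 7.31 in stressed replicate 1. The median gap to the nearest other region was 43.9 kb for the 55, 38.7 kb for the 137 and 47.7 kb for all regions. Without stressed replicate 1 it was 61.9 kb for the 201 stressed-only, 46.5 kb for the 318 standard-reared-only and 50.1 kb for all regions, so the stressed-only value then lay above that of all regions.

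Libraries of the same rearing were no more alike than libraries of different rearing. The Jaccard index, the bases shared by 2 equal-length lists over the bases in either, averaged 0.420 over the 4 pairs of the same rearing and 0.469 over the 6 pairs of different rearing (exact permutation p = 0.2). The 2 standard-reared libraries shared 0.498, stressed replicates 2 and 3 shared 0.497, and the most alike pair of all, standard-reared replicate 2 and stressed replicate 2, shared 0.574. Pairs with stressed replicate 1 shared 0.309 to 0.449. Ranks of fold likewise set stressed replicate 1 apart: over the 3628 regions, the median difference in percentile of fold was 13.3 to 15.5 points in the 6 pairs without stressed replicate 1 and 24.5 to 29.7 points in the 4 pairs with it.

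**Figure D4:**
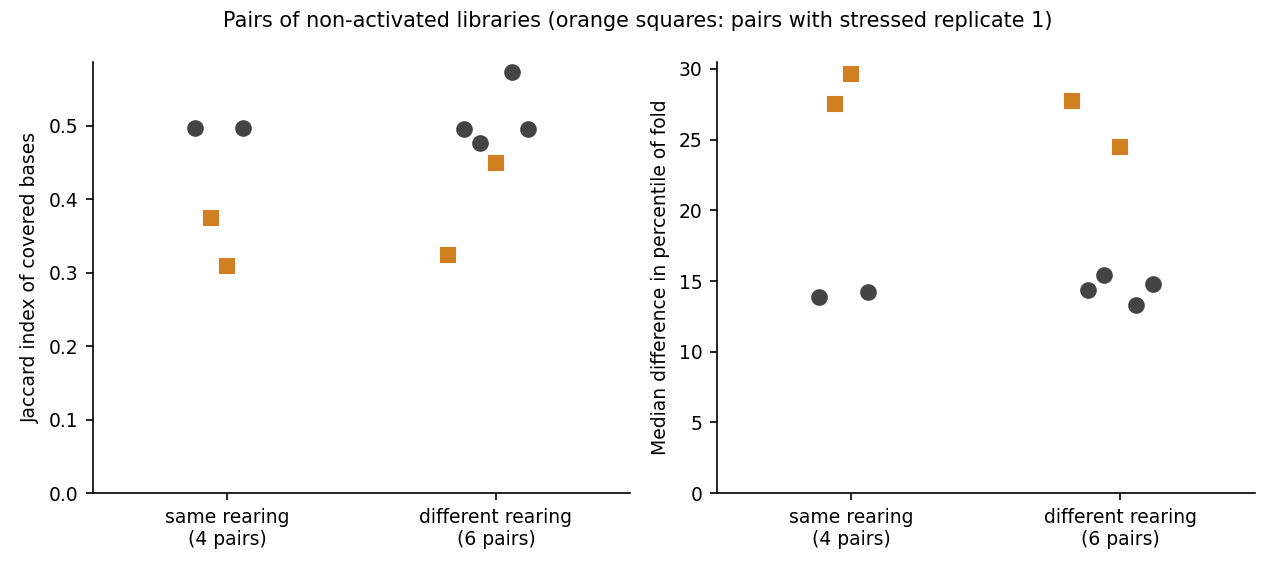
Likeness of the 10 pairs of libraries, split on the horizontal axis into 4 pairs of the same and 6 of different rearing. The left panel plots the Jaccard index of covered bases and the right panel the median difference in percentile of fold over 3628 regions; pairs with stressed replicate 1 (orange squares) have the lowest indices, 0.309 to 0.449, and the largest differences, 24.5 to 29.7 points.

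Without stressed replicate 1, 2 libraries a group remained and the sets grew, since fewer lists had to hold or lack a region. Of 7421 regions in at least 2 of the 4 lists, 201 (2.71%) were stressed-only and 318 (4.29%) standard-reared-only, and standard-reared-only regions were again the more numerous. All 55 and all 137 regions of the larger comparison were among them, which is 27.4% of the 201 and 43.1% of the 318. The library left out had an equal-length peak in 57 of the 201 and in 181 of the 318, and a whole-list peak in 192 and 318. Limma on the ranks of 4281 regions called 0, the smallest adjusted p being 0.881, with 118 higher and 95 lower at an unadjusted limma p under 0.05.

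Absence from the whole lists of the other group then left 19 stressed-only (0.256%) and 56 standard-reared-only regions (0.755%). The highest-ranked of the 19 lay at chr9:16765681-16766162, with folds of 8.89 and 6.71 in stressed replicates 2 and 3 and no peak in stressed replicate 1 or either standard-reared library. Among the activated libraries only stressed replicates 2 and 3 had a peak there, at 4.75 and 8.44, and these libraries came from the same 2 animals. At chr15:99157619-99157987 the folds were 8.14, 8.0 and 6.12 in stressed replicates 1 to 3, from 23, 11 and 6 fragments, and 0 of the 5 activated lists had a peak there. At chr2:44416364-44416824 the folds were 9.1, 8.28 and 6.21, and all 5 activated lists had a peak. The other 3 named, chr17:5656322-5656827, chr6:88507279-88507663 and chr11:113055878-113056291, had folds of 6.79 to 7.76 in stressed replicate 2 and 5.33 to 5.99 in replicate 3. Stressed replicate 1 called those 3 as well, and 3 or 4 of the activated lists did.

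Of the 56, the first 6 were chr14:34796653-34796943, described above, chr10:79582272-79582630, chr6:87649019-87649428, chr7:65710061-65710609, chr4:44981322-44981665 and chr11:49094104-49094626. Their folds were 5.71 to 6.73 in standard-reared replicate 1 and 9.16 to 11 in replicate 2. Stressed replicate 1 had a peak at all 6, with folds of 10.8 to 17.6, and at chr10:79582272-79582630 and chr6:87649019-87649428 it ranked at percentiles 88.2 and 73.3 of its equal-length list. All 6 had a peak in the whole lists of all 5 activated libraries.

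The counts moved in the same way when any other library was left out. They changed little when all 5 lists were cut by fold, with 51 stressed-only and 131 standard-reared-only of 8038 regions. Where a peak had to cover at least 50% of a region they were 54 and 125 of 7165 regions. Without stressed replicate 2 there were 144 stressed-only (1.94%) and 308 standard-reared-only regions (4.15%), and without stressed replicate 3 there were 152 (2.05%) and 281 (3.79%). Stressed-only regions numbered 158 (2.14%) without standard-reared replicate 1 and 323 (4.4%) without standard-reared replicate 2. With females only, 852 regions (12.7%) were in both standard-reared lists and absent from stressed replicate 3. In the whole lists the order of the groups turned over, with 90 stressed-only (0.608%) and 8 standard-reared-only (0.054%) of 14805 regions, the stressed group holding the list of 50786 peaks.

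The activated libraries did not choose these regions and show how they behave elsewhere, although 4 animals gave a library of both classes. The 55 stressed-only regions had a peak in the equal-length lists of activated stressed replicates 1 to 3 in 60.0%, 58.2% and 61.8% of cases, and in those of activated standard-reared replicates 1 and 2 in 67.3% and 76.4%. They were thus found less in the stressed than in the standard-reared activated lists, by 11.8 points (means 60.0 ± 1.82, SD, n = 3, and 71.8 ± 6.43, SD, n = 2; exact permutation p = 0.1, the smallest possible; 0.2 adjusted over 4 sets). The 1290 other regions in 3 lists gave means of 59.1% and 59.5%. The 55 were thus near them in stressed activated lists and above them in standard-reared ones. The 137 standard-reared-only regions were found in 39.4%, 45.3% and 48.9% against 56.9% and 49.6% (exact permutation p = 0.2). The 1201 other regions in 2 lists ran the same way, with means of 40.1% in stressed and 44.3% in standard-reared activated lists. All 7928 regions gave 76.1% ± 2.16 (SD, n = 3) and 74.5% ± 2.78 (SD, n = 2). In the whole activated lists, 52 of the 55, 120 of the 137 and 7430 of all 7928 regions had a peak in all 5 libraries.

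The sets made without stressed replicate 1 gave 39.8% ± 3.03 (SD, n = 3) in stressed and 40.8% ± 6.33 (SD, n = 2) in standard-reared activated lists for the 201 stressed-only regions (exact permutation p = 0.8). The 318 standard-reared-only regions gave 57.3% ± 0.480 (SD, n = 3) and 65.4% ± 3.11 (SD, n = 2; exact permutation p = 0.1, adjusted 0.2). The order of the 318 followed rearing, 8.07 points lower in stressed mice, while that of the 55 ran against it. All 7421 regions gave 78.0% in stressed and 75.7% in standard-reared activated lists. The 1000 other regions in 2 of the 4 lists gave 49.2% and 50.05%. No set passed the adjusted threshold, which this design cannot reach.

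**Figure D5:**
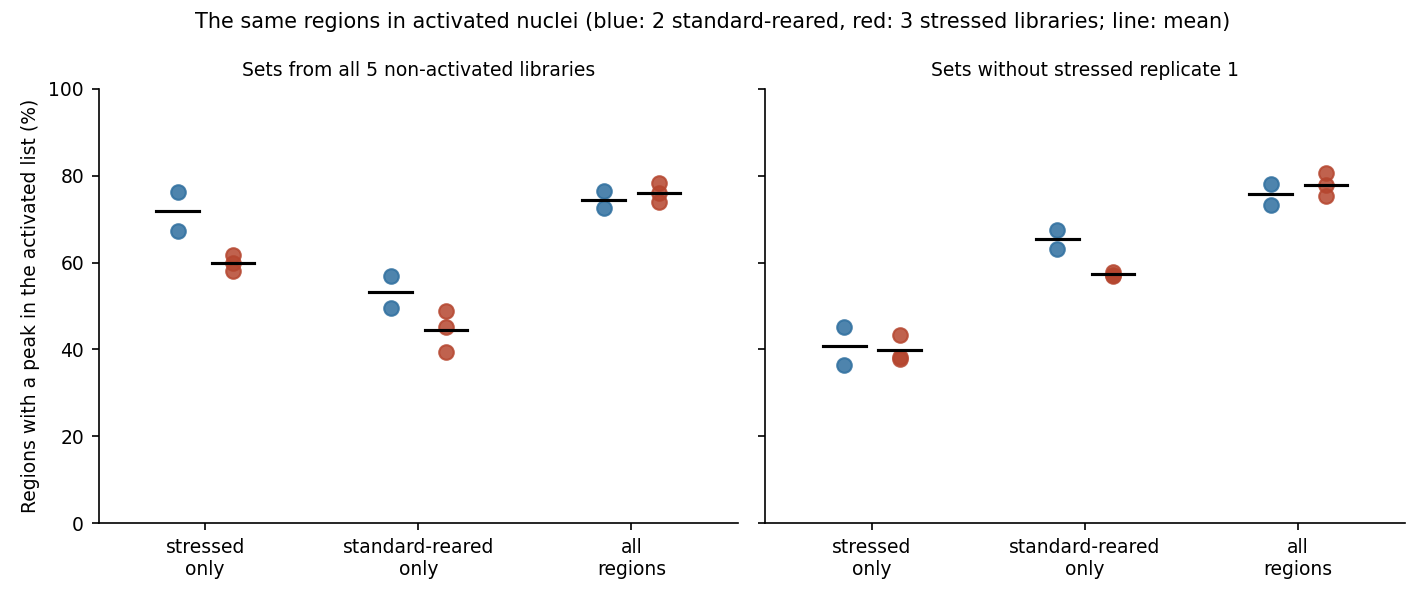
Share of regions with a peak in each equal-length list of activated nuclei (vertical axis, percent), for the sets from all 5 non-activated libraries (left) and without stressed replicate 1 (right); blue points are the 2 standard-reared and red the 3 stressed activated libraries, lines their means. The 55 stressed-only regions lie at 58.2% to 61.8% in stressed and 67.3% to 76.4% in standard-reared activated libraries, and all 7928 regions lie between 72.6% and 78.3%.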

How the data were processed

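Of 10 bulk ATAC-seq libraries, each with a peak list of its own, the 5 non-activated ones were compared. The submitters' processing notes name MACS2 2.2.9.1, SAMtools 1.13, Bowtie2 2.4.5, fastp 0.23.4 and R 4.4.2 and the build mm39, without their roles. Caller settings, shifting of reads for the transposase and removal of duplicates, not given in the sources used here, could change which peaks were called. In the lists deposited by the authors the fold of a peak is a ratio, its pileup at the summit over the background. The authors wrote p and q as -log10, and the deposited score, 10 times -log10 q, was not used. These are the authors' own values per peak, used to rank and filter within a list.

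Distinct intervals on chromosomes 1 to 19, X and Y were kept. Lists were cut to 7076 peaks by -log10 q, overlapping peaks (at least 1 bp) merged and regions in at least 2 libraries kept. The pileup was recovered as the whole number of fragments that gives both fold and p (pseudocount 1; relative misfit under 2e-05), and the lowest background over the narrowest peak width gave fragments per kb. Group values were tested by two-sided exact permutation over libraries, and ranks in limma 3.58.1 (R 4.3.3) with Benjamini-Hochberg adjustment. The rest was done in Python 3.11.15 with SciPy 1.17.1, pandas 2.3.3, NumPy 2.4.6 and Matplotlib 3.10.9. Each library came from another animal within the comparison, per the labels, so p-values measure the spread between animals and libraries together.

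Named regions were, for each direction, those absent from the whole lists of the other group, filled up to 8 by the lowest within-library percentile of fold, 6 without stressed replicate 1, and the 5 of lowest limma p. The members, lists and tests were chosen with earlier results of these data known. The counting, pileup and rank steps were tested on simulated data. Alternatives were other list lengths and cuts, overlap rules, whole lists, thinning, autosomes, each library left out and a replicate block. Planned results on gene classes, marker promoters and gene lists were not run, as they need an annotation of mm39; sequences are not shown for the same reason.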

Additional observations from a re-analysis of the deposited data

Results flagged for a closer look

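Peaks on the mitochondrial genome lay outside the comparison, which used the autosomes, X and Y. Standard-reared replicates 1 and 2 had 5 and 5 of them, and stressed replicates 1, 2 and 3 had 8, 8 and 6. They covered 8078 and 10187 bases in standard-reared and 9099, 8614 and 9435 bases in stressed libraries, so the groups overlapped in covered length while the numbers did not. Activated libraries had 3 to 13 such peaks. No control without transposase was among the libraries, and the source of these fragments was not tested.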

How the results depend on the processing

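The 3628-region rank test called 0 regions under each of its 11 alternatives, with 12 to 213 at an unadjusted limma p under 0.05. The named rank differences kept their sign in 110 of 110 alternatives, but these regions were chosen for the lowest p of this same test. Their percentiles did not overlap between groups, so leaving out a library could hardly turn a sign, and that count is no support for them. Presence of the named regions moved in 38 of 78. Leaving out each library in turn gave log2 differences of 0.07 to 1.34 for peak number, -0.0073 to 1.36 for covered length and -0.060 to 0.49 for median width (-0.04 without standard-reared replicate 1), the lowest in each case without stressed replicate 1. It gave 0.118 to 0.217 percentage points for the X share, -0.00707 to 0.0141 for the Y share, -0.857 to -0.318 for peaks within 10 kb of the next and -0.112 to -0.0132 for the Jaccard difference. It also gave 144 to 323 stressed-only and 281 to 318 standard-reared-only regions, higher by construction since fewer lists must hold or lack a region; a group reduced to 1 library gives no value. The share within 10 kb turned to 7.77 points in whole lists. With females only, an alternative chosen after seeing the data, peak number, covered length and width differed by -0.18, -0.33 and -0.23 on the log2 scale and the Y share by -0.00707 points, and 852 regions were standard-reared-only. In lists of 3538 peaks 81 regions were standard-reared-only, in whole lists 90 were stressed-only and 8 standard-reared-only, and absence from whole lists left 2 and 0, or 19 and 56 without stressed replicate 1 (added after seeing the data). Other causes of these shifts were not tested. Depth limits what absence means, since median summit pileups were 7 to 16 fragments in the whole lists.

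Replicate numbers do not pair these libraries, which came from different animals. Deviations of same-numbered libraries from their group means correlated at -0.161 and -0.102 over 3628 regions. With 2 standard-reared libraries these deviations mirror each other, so the different-numbered pairs gave 0.161 and 0.102 by construction. The correlations therefore cannot show whether libraries pair. With the replicate block the log2 differences were 1.31 for peak number and 1.3 for covered length (exact sign-flip p = 1 for both), and limma called 0 regions. The sign-flip test cannot give a p below 0.5 here.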

Other observations

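The rearing difference in peak number was 0.82 on the log2 scale in non-activated and -0.63 in activated libraries, a difference of 1.44 (exact permutation of rearing labels within each class, p = 0.25 over 100 regroupings), and of 0.69 once stressed non-activated replicate 1 was left out, chosen after seeing the data (p = 0.333 by exact permutation over 60 regroupings). For covered length the values were 0.76 and -0.67, differing by 1.43 (exact permutation p = 0.25), and by 0.67 without that library (exact permutation p = 0.4). These permutations treated the libraries of both classes as independent, although 4 animals gave a library of each. Of the 201 stressed-only regions made without stressed replicate 1, the whole list of activated stressed replicate 2 held 97.0%, and the whole lists of the other 4 activated libraries held 83.6% to 86.6%. That library also held the largest share of all 7421 regions, 99.7% against 96.9% to 98.3%, and of the other 1000 regions in 2 of the 4 lists, 98.8% against 90.2% to 95.1%.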
